A study of Mus musculus with 6 samples.

Results

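The genes described here encode enzymes that chemically modify foreign compounds, lipids and reactive aldehydes: cytochromes P450 (Cyp), flavin monooxygenases (Fmo), carboxylesterases (Ces), glutathione transferases (Gst), UDP-glycosyltransferases (Ugt), sulfotransferases (Sult), aldehyde dehydrogenases (Aldh) and aldo-keto reductases (Akr). They were taken by gene symbol alone, as every symbol beginning with Cyp and a digit (Cyp51 left out) or with Gst, Aldh, Ugt, Akr, Ces, Sult or Fmo and a letter or digit. The deposited tables held 33 such genes among 3162 in all. The GRCm38 annotation has 230 protein-coding genes with these symbols, so 14.3% of them were held, beside 14.4% of all protein-coding genes. The 33 included 7 of 99 protein-coding Cyp genes, 3 of 8 Fmo, 2 of 19 Ces and 6 of 23 Gst genes. The rest were 2 of 22 Ugt, 1 of 21 Sult, 6 of 21 Aldh and 6 of 17 Akr genes. The other members of these families were not analysed here.

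RNA came from the white fat around the epididymis of male wild-type C57BL/6J mice aged 16 weeks. A group of 3 mice was fed and a group of 3 was deprived of food for 24 h, with 1 library per mouse. All values are FPKM, fragment counts scaled to transcript length and to the library total. Depth per library is unknown, because the files give no counts.

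The 3162 genes are not a sample of the transcriptome. Fed and fasted values did not overlap in 93.4% of them, and of the 3157 with a finite ratio of group means only 9 had a log2 ratio between -0.2 and 0.4. Among positive log2 ratios the 1st percentile was 0.45, and among negative ones the 99th percentile was -0.21, so the smallest changes were missing, more of them among rises than among falls. Summed FPKM over the genes held was 190382 to 209201 in fed and 180058 to 188061 in fasted libraries. Across genes, Spearman's rho for pairs of libraries was 0.973 to 0.985 for the same feeding state and 0.832 to 0.926 for different states. By limma, 1232 of 2999 tested genes were higher (41.1%) and 1482 lower (49.4%) after fasting, with a median log2 fold change of -0.34. That median moved to -0.15 with median-ratio scaling and to -0.21 with quantile scaling. Both scalings were computed from the genes held alone. They assume that these genes as a whole do not shift, which cannot be assumed for genes chosen in this way. A library offset and a real shift of the genes held therefore cannot be told apart by them. Of 21 adipocyte markers 7 were held, led by Retn at 3761 to 4786 FPKM in fed and 2670 to 2895 in fasted tissue.

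Enzymes that handle foreign compounds work in stages. P450s and flavin monooxygenases insert oxygen with electrons from NADPH, and carboxylesterases cut ester bonds. Transferases then attach glutathione, glucuronic acid or sulfate, which makes the products easier to export. Aldehyde dehydrogenases oxidise aldehydes to acids with NAD(P)+, whereas aldo-keto reductases reduce them to alcohols with NADPH. Fat stores lipophilic compounds, and several of these enzymes also act on fatty acids, retinoids and the aldehydes formed from oxidised lipid.

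The direction of change differed between the families. Of the 12 P450, flavin monooxygenase and carboxylesterase genes, 11 rose and 1 fell, with a median log2 fold change of 1.29. Of the 11 aldehyde dehydrogenase and aldo-keto reductase genes tested, 10 fell and 1 did not pass, with a median of -0.50. Many of these falls depended on the scaling, which was computed from the genes held and cannot tell an offset from a real shift. Of 5 aldehyde dehydrogenase falls 3 were left with either scaling, and of 5 aldo-keto reductase falls 1 with median-ratio and 2 with quantile scaling. Among the 8 conjugating enzymes tested there were 5 rises and 3 falls. Small rises were missing from the genes held more than small falls. Among the 33 members the log2 ratio of group means closest to 0 was 0.71 for rises and -0.21 for falls. How far the choice of genes shaped the contrast between families was not tested. Over all tested genes 41.1% were called higher and 49.4% lower, and the median was -0.34. In all, 31 of the 33 genes passed the filter of a mean of 1 FPKM, and 16 rose and 14 fell at an adjusted p under 0.05 (51.6% and 45.2% of those tested, limma with Benjamini-Hochberg adjustment). The share called in either direction among all tested genes was 90.5%, so the number of members called is not a result about them. Rises of at least 1 on the log2 scale numbered 11, where 11.3% of all tested genes reached that size, and falls of that size numbered 2, where 11.6% did. The 3 genes Cyp26b1, Fmo4 and Gstp3 passed the filter at a mean under 5 FPKM, and in 2 of them, Fmo4 and Gstp3, only the fasted mean exceeded 1 FPKM.

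**Figure D1:**
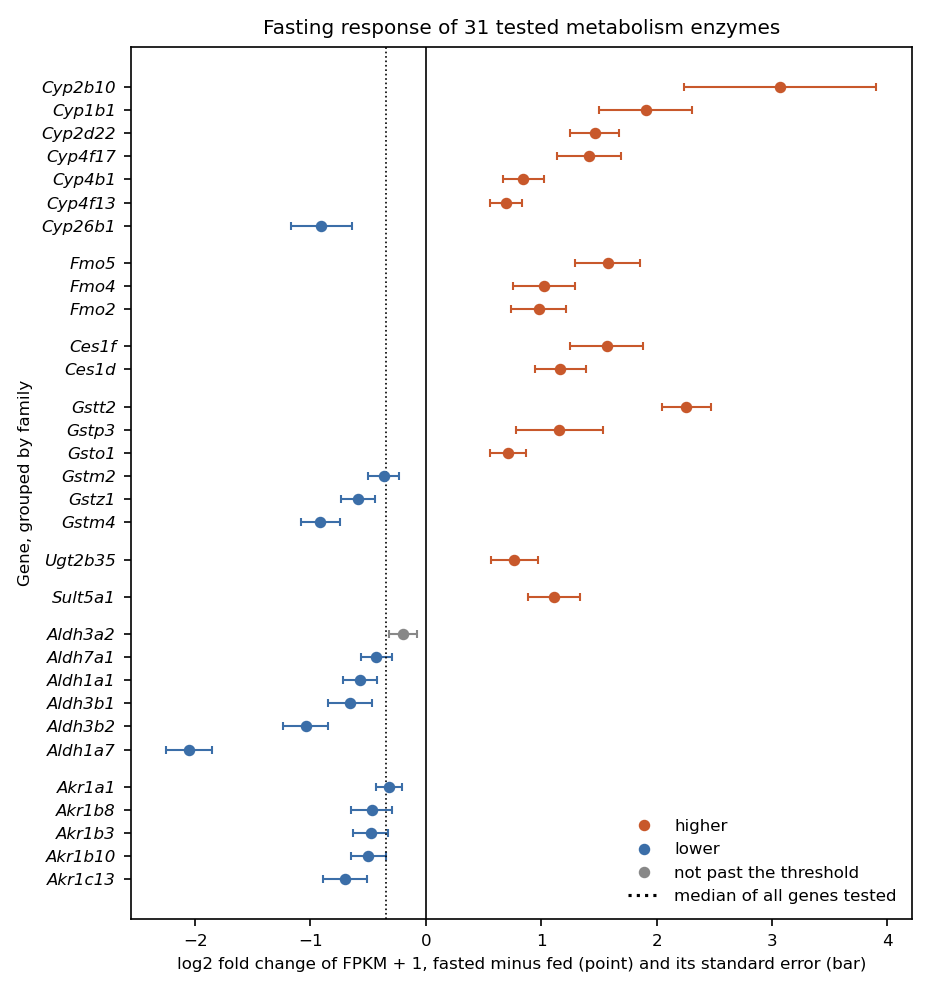
Log2 fold change of FPKM + 1, fasted minus fed (x axis, points, bars are the standard error), for the 31 enzyme genes tested, grouped by family (y axis); the dotted line is the median of all genes tested. All P450, flavin monooxygenase and carboxylesterase genes but Cyp26b1 lie to the right of 0, and all aldehyde dehydrogenase and aldo-keto reductase genes to the left.

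No member changed its sign under any alternative tried. With median-ratio scaling 16 members rose and 7 fell, which put rises at 69.6% of calls against 53.3%. All genes held moved the same way, from 45.4% to 61.1% of calls. With quantile scaling 16 members rose and 8 fell. Without fed replicate 2, or without fasted replicate 2, 9 members fell. Only 3 of the 33 passed when p-values were adjusted over all annotated genes, each gene not tested being given the largest p. They were Gstt2, Cyp2d22 and Aldh1a7 (adjusted p = 0.00933, 0.0349 and 0.0104), where 5.74% of tested genes passed as higher and 6.40% as lower.

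The P450 genes that rose are known for different substrates. Cyp1b1 encodes a P450 that oxidises polycyclic aromatic hydrocarbons and oestrogens and is a textbook target of the aryl hydrocarbon receptor. It measured 22.0, 6.42 and 14.2 FPKM in fed replicates 1, 2 and 3 and 64.6, 56.4 and 35.4 FPKM in fasted replicates 1, 2 and 3. Every fasted library was above every fed one, an order found in 16 of the 33 members and in 41.9% of all genes held. The mean went from 14.2 ± 7.80 to 52.1 ± 15.1 FPKM (SD, n = 3 per group), which on the log2 scale is a change of 1.91 ± 0.40 (standard error, limma, adjusted p = 0.00572).

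Cyp2b10, the classical phenobarbital-induced P450 of mouse liver, had the largest fold change of the 31 tested and the least even one. Its fed values were 3.52, 0.65 and 1.04 FPKM and its fasted values 11.2, 88.0 and 7.28 FPKM. Fasted replicate 2 stood far above the other fasted libraries, which were themselves above all fed libraries. The log2 fold change was 3.07 ± 0.84 (limma adjusted p = 0.0119). Without fasted replicate 2 it was 2.02.

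Cyp2d22, a gene of the family that metabolises many basic drugs, rose more evenly. It measured 35.5, 21.9 and 37.7 FPKM in fed and 88.9, 96.4 and 76.4 FPKM in fasted libraries, a 2.75-fold higher mean (log2 fold change 1.46 ± 0.21, limma adjusted p = 0.00189). Among the P450 genes it alone passed the adjustment over all annotated genes.

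Family 4 P450s hydroxylate fatty acids and eicosanoids near the end of the chain. Cyp4f17 went from 18.2, 9.08 and 19.2 to 44.1, 47.8 and 32.6 FPKM (log2 fold change 1.41 ± 0.28), with fed replicate 2 lowest. Its relative Cyp4f13, 395 kb away on chromosome 17, went from 19.4, 17.9 and 21.5 to 36.7, 31.4 and 29.1 FPKM (0.69 ± 0.14). Cyp4b1 had nearly identical fed values of 48.3, 48.3 and 47.4 FPKM and rose to 97.2, 65.5 and 103 FPKM (0.84 ± 0.18). The lowest fasted library of each of these genes was above its highest fed library.

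The exception among the P450s was Cyp26b1, which encodes a retinoic acid hydroxylase that removes this vitamin A hormone. It was low in all libraries, at 1.95, 4.98 and 2.79 FPKM in fed and 0.99, 1.08 and 1.45 FPKM in fasted tissue. The groups did not overlap, and the log2 fold change was -0.91 ± 0.26 (limma adjusted p = 0.0148). On the log2(FPKM + 1) scale the change of such a low gene is understated. With a pseudocount of 0.1 it was -1.31.

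Sequence upstream of the start was at hand for 24 of the 33 genes (RefSeq, GRCm38.p6, 250 bases before to 50 after the start). Akr1b3, Aldh3b2, Aldh7a1, Ces1d, Ces1f, Cyp2d22, Cyp4f17, Gstt2 and Ugt3a2 were not matched. The core of the xenobiotic response element, GCGTG, which the aryl hydrocarbon receptor and its partner ARNT bind, was searched on both strands. It occurred in 5 of the 24 windows (Akr1b8, Aldh3a2, Cyp1b1, Cyp2b10 and Gstp3), and in 35.2% of the 27025 genes with such a window. The stretches before the starts of Cyp1b1 and Cyp2b10, the P450 genes with the largest fold changes, are shown with the motif in capitals. On the strand shown it reads CACGC, its reverse complement. Bases inside the annotated gene are left out, and with them another match of Cyp2b10, at bases -9 to -5 from the RefSeq start.
Cyp1b1 (GRCm38.p6, chr17:79715062-79715211, minus strand): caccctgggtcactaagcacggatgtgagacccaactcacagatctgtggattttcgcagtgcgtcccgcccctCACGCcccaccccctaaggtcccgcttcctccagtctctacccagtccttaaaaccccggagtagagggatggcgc
Cyp2b10 (GRCm38.p6, chr7:25897508-25897619, plus strand): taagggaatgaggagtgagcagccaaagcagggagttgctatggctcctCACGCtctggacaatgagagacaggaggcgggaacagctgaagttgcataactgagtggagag

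The site TGTTTAC, bound by forkhead factors such as FOXO, occurred on either strand in 4 of the 24 windows and in 4.05% of all genes with a window. The genes with a match were Fmo2 and Ugt2b35, which rose, and Akr1b10 and Akr1c13, which fell. On the forward strand alone it occurred in Akr1b10 and Akr1c13. The stretches of Ugt2b35 and Akr1b10 are shown, with the match in capitals, because they place the same letters before a gene that rose and a gene that fell. In Ugt2b35 the site reads GTAAACA, the reverse complement.
Ugt2b35 (GRCm38.p6, chr5:87000610-87000669, plus strand): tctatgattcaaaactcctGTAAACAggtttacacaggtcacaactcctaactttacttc
Akr1b10 (GRCm38.p6, chr6:34384127-34384186, plus strand): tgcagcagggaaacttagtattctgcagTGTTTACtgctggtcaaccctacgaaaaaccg
Of the other motifs searched on both strands, the nuclear receptor hexamer AGGTCA was in 5 windows (18.1% of all genes), the antioxidant response element core TGACNNNGC in 1 (14.0%) and the E-box CACGTG in 1 (8.09%). The cyclic AMP response element TGACGTCA (2.03%) and the direct repeats DR1 and DR4 of the hexamer (0.0481% and 0.0148%) were in 0 of the 24 windows. These are matches of letters in a short window, which leaves out distal elements.

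The 3 flavin monooxygenase genes held were called higher, as were 41.1% of all tested genes. Fmo4 passed the filter only through its fasted values, and with a minimum mean of 5 FPKM the number was 2. These enzymes add oxygen to nitrogen and sulfur atoms. Fmo5, whose product also oxidises ketones to esters, went from 16.4, 13.8 and 23.4 FPKM in fed to 38.6, 80.2 and 50.9 FPKM in fasted libraries (log2 fold change 1.57 ± 0.28, limma adjusted p = 0.00353). Fasted replicate 2 was the highest library for Fmo5, as it was for Cyp2b10. Fmo2 went from 18.8, 35.9 and 33.8 to 53.2, 53.2 and 65.0 FPKM (0.98 ± 0.24). Fmo4, which lies 60.3 kb from Fmo2 on chromosome 1, stayed low at 0.92, 0.79 and 0.87 FPKM in fed and 4.76, 2.33 and 1.82 FPKM in fasted tissue (1.02 ± 0.27). Without fasted replicate 1 the change of Fmo4 was 0.72, and with a pseudocount of 0.1 it was 1.56.

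Both carboxylesterase genes held rose, as did 41.1% of all tested genes. Ces1d encodes an esterase known as a triacylglycerol hydrolase of adipocyte lipid droplets, and it was the most abundant member in the fasted libraries. It measured 503, 565 and 833 FPKM in fed and 1266, 1238 and 1707 FPKM in fasted libraries (log2 fold change 1.17 ± 0.22, limma adjusted p = 0.00422). Ces1f, 58.4 kb away on chromosome 8, went from 55.9, 48.5 and 103 to 176, 155 and 276 FPKM (1.57 ± 0.31). For both genes replicate 3 was the highest library of each group, and the groups did not overlap. Ces1d made up 20.4% to 27.1% of the summed FPKM of the 33 genes in fed and 36.8% to 43.4% in fasted libraries. Gstz1, the most abundant fed member in replicates 1 and 2, went from 23.7% to 27.5% down to 12.2% to 14.0%. The sum over all 33 genes was 2467 to 3074 FPKM in fed and 3349 to 3934 FPKM in fasted libraries.

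Among the glutathione transferases there were 3 rises and 3 falls, where 41.1% of all tested genes were called higher and 49.4% lower. All classes but mu had a single gene held, so no pattern by class can be seen. Gstt2 (ENSMUSG00000033318, chromosome 10, 75831114 to 75837424, minus strand, GRCm38), of the theta class, had the smallest adjusted p of all 31 members tested. It measured 24.0, 14.8 and 16.7 FPKM in fed and 112, 74.9 and 88.4 FPKM in fasted libraries. The lowest fasted value was well above the highest fed value, and the mean was 4.96-fold higher (log2 fold change 2.26 ± 0.21, limma adjusted p = 0.000505). Leaving out any library kept the change between 2.11 and 2.45. Gsto1, an omega-class enzyme that reduces dehydroascorbate, went from 83.0, 60.1 and 69.6 to 102, 119 and 128 FPKM (0.71 ± 0.16).

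Gstp3, of the pi class, was near the lower limit in fed tissue at 0.58, 0.68 and 0.41 FPKM. In fasted tissue it was 3.74 and 3.87 FPKM in replicates 1 and 2 but 0.80 FPKM in replicate 3, just above the fed values. Its log2 fold change of 1.16 ± 0.37 (limma adjusted p = 0.0208) missed the threshold without fed replicate 3, fasted replicate 1 or fasted replicate 2, with adjusted p up to 0.0692. It was 1.63 without fasted replicate 3 and 1.89 with a pseudocount of 0.1.

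The mu-class gene Gstm4 fell from 21.4, 29.5 and 30.4 to 13.7, 12.4 and 15.3 FPKM (log2 fold change -0.91 ± 0.17). Its neighbour Gstm2 was more abundant per length in every library and changed less, from 187, 208 and 240 to 175, 151 and 165 FPKM (-0.36 ± 0.13, limma adjusted p = 0.0326). Gstm2 missed the threshold with both scalings, and also when fed replicate 2, fed replicate 3, fasted replicate 2 or fasted replicate 3 was left out (limma adjusted p up to 0.114 with a library left out). Gstz1 is the maleylacetoacetate isomerase of tyrosine breakdown rather than a drug-conjugating enzyme. It fell from 584, 750 and 740 to 409, 472 and 493 FPKM (-0.59 ± 0.15, limma adjusted p = 0.0095). Exons of Gstz1 share 465 bases (9.14%) with Pomt2 on the opposite strand, so some reads could belong to either gene.

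Among the remaining conjugating enzymes, Ugt2b35, a glucuronosyltransferase, rose from 51.8, 36.9 and 30.2 to 76.7, 58.8 and 65.2 FPKM (log2 fold change 0.77 ± 0.21). Sult5a1, a sulfotransferase, rose from 4.53, 2.52 and 2.68 to 9.51, 8.59 and 6.17 FPKM (1.11 ± 0.23, limma adjusted p = 0.00522). Ugt3a2 was below the filter, at 0.17, 1.48 and 0.86 FPKM in fed and 0.08, 0.03 and 0.07 FPKM in fasted libraries. Without the filter its log2 fold change was -0.73 (limma adjusted p = 0.0285).

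**Figure D2:**
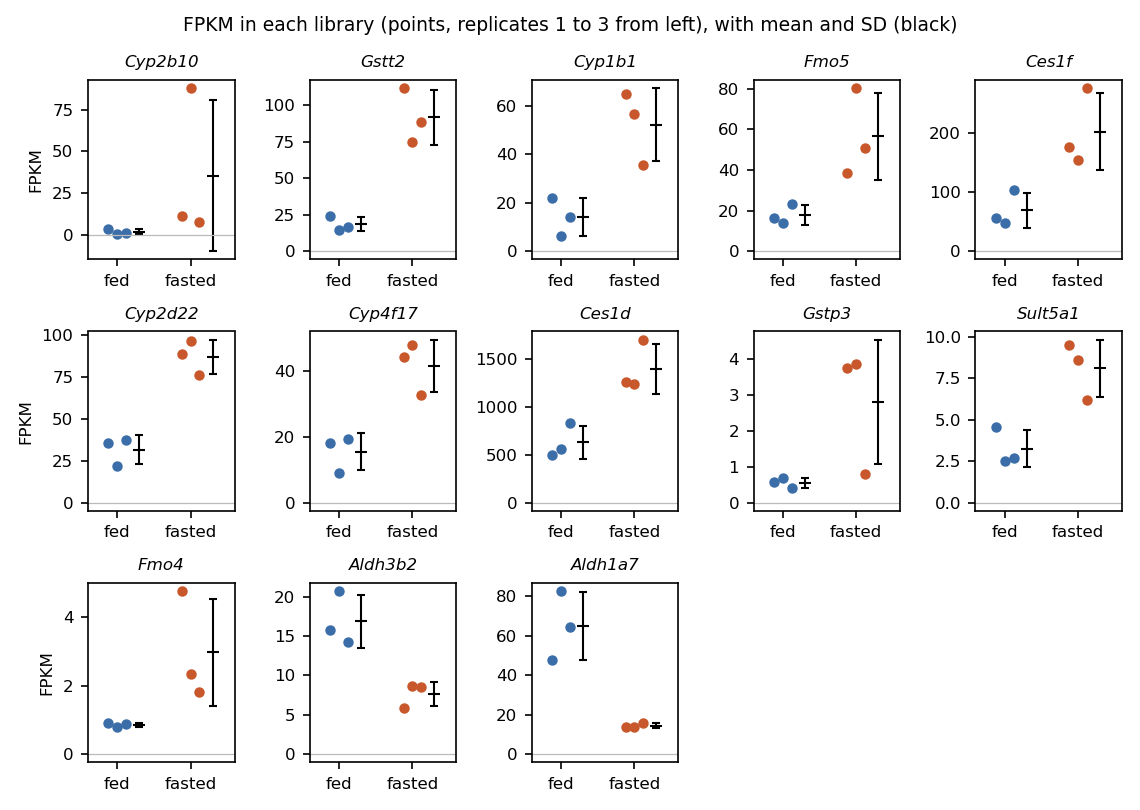
FPKM (y axis) in each fed (blue) and fasted (orange) library for the 13 members called with a log2 fold change of at least 1 in size, ordered from the largest rise to the largest fall; black marks give the mean and SD of 3 libraries. The groups do not overlap in any of the 13, as in 93.4% of all genes held, and fasted replicate 2 of Cyp2b10, at 88.0 FPKM, and fasted replicate 3 of Gstp3, at 0.80 FPKM, lie apart from their groups.

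The aldehyde dehydrogenase genes were lower after fasting, with 5 of 6 past the threshold and 3 of 6 with either scaling, none changing sign (0). The share of tested genes called lower was 49.4%. The deepest fall was that of Aldh1a7 (ENSMUSG00000024747, chromosome 19, 20692953 to 20727562, minus strand, GRCm38). It measured 47.7, 82.6 and 64.5 FPKM in fed and 13.9, 13.6 and 16.0 FPKM in fasted libraries. The fasted libraries lay close together at a level 4.47-fold below the fed mean (log2 fold change -2.05 ± 0.20, limma adjusted p = 0.000565). Its neighbour Aldh1a1, which oxidises retinaldehyde to retinoic acid, fell less. It measured 139, 118 and 156 FPKM in fed and 81.9, 91.5 and 104 FPKM in fasted libraries (-0.57 ± 0.15, limma adjusted p = 0.0102), and lost the call with both scalings.

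Aldh1a1 and Aldh1a7 are related copies 49.5 kb apart on opposite strands. Their coding sequences are each 1506 bases long in the GENCODE M21 transcripts and differ at 126 bases, an identity of 91.6%. The opening 150 coding bases are shown to illustrate how far reads of the copies can be told apart, with the 10 bases that differ in capitals.
Aldh1a1: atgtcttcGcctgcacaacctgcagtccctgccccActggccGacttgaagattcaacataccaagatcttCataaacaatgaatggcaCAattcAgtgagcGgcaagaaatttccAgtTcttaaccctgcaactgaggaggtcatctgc
Aldh1a7: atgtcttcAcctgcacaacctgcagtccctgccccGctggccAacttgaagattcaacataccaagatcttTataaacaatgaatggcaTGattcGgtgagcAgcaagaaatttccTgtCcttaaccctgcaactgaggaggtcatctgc
Of the 50-base windows of the Aldh1a7 transcript, 7.49% also occurred in Aldh1a1, and in the other direction the share was 6.54%. The ratio of Aldh1a7 to Aldh1a1 within a library was 0.343, 0.697 and 0.412 in fed and 0.170, 0.149 and 0.154 in fasted libraries. The ratios of the groups did not overlap and differed by -1.55 on the log2 scale.

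The lipid aldehyde dehydrogenase genes Aldh3b1 and Aldh3b2 also lie on chromosome 19, 42.5 kb apart. Aldh3b2 fell from 15.7, 20.7 and 14.3 to 5.93, 8.63 and 8.49 FPKM (log2 fold change -1.04 ± 0.19, limma adjusted p = 0.00374). Aldh3b1 fell from 10.3, 8.93 and 6.44 to 5.80, 4.95 and 4.30 FPKM (-0.65 ± 0.19). Both shared windows with Aldh3b3, which was not analysed here (23.5% of the Aldh3b2 and 8.69% of the Aldh3b1 windows). Aldh7a1, an enzyme of lysine breakdown, fell from 26.8, 26.0 and 30.0 to 17.7, 22.6 and 20.7 FPKM (-0.43 ± 0.13). The call for Aldh7a1 was lost with both scalings, and without fed replicate 3 or fasted replicate 1. Aldh3a2, the fatty aldehyde dehydrogenase, was 15.3, 17.2 and 16.2 FPKM in fed and 15.02, 13.9 and 13.2 FPKM in fasted libraries (-0.20 ± 0.12, limma adjusted p = 0.136). The fasted values of Aldh3a2 lay below all fed values, but the difference did not pass.

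The aldo-keto reductase genes showed small falls of a similar size. Rises as small as the smallest of these falls were mostly missing from the genes held. All 5 tested passed, with log2 fold changes from -0.70 to -0.32, where 49.4% of all tested genes were called lower and the median of all was -0.34. Akr1a1, the aldehyde reductase, was the most abundant at 378, 415 and 392 FPKM in fed and 333, 305 and 310 FPKM in fasted libraries (-0.32 ± 0.11, limma adjusted p = 0.028). Akr1b3, the aldose reductase of the polyol pathway, fell from 85.1, 102 and 85.0 to 56.4, 61.4 and 77.7 FPKM (-0.48 ± 0.15). Its relatives on chromosome 6, Akr1b8 (16.5, 15.6 and 10.8 to 9.21, 10.9 and 9.60 FPKM) and Akr1b10 (16.3, 18.8 and 16.9 to 14.5, 11.5 and 10.2 FPKM), changed by -0.47 ± 0.18 and -0.50 ± 0.15. Fed and fasted values of Akr1b8 overlapped. Akr1c13, of the hydroxysteroid dehydrogenase group, fell the most, from 15.4, 21.4 and 14.0 to 9.18, 8.73 and 11.9 FPKM (-0.70 ± 0.19, limma adjusted p = 0.0117).

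The calls, more than the sizes, of these small falls moved when libraries were left out. With single libraries left out the log2 fold change was -0.36 to -0.28 for Akr1a1, -0.63 to -0.39 for Akr1b10, -0.61 to -0.38 for Akr1b3 and -0.65 to -0.36 for Akr1b8. With median-ratio scaling these 4 were smaller, at -0.11, -0.30, -0.27 and -0.28. Of the 5 calls, 1 was left with median-ratio and 2 with quantile scaling, 1 without fed replicate 2 or fasted replicate 2, and 3 without fasted replicate 1 or 3. Akr1b8 missed the threshold when any library but fed replicate 3 was left out (limma adjusted p up to 0.114), and Akr1a1 did so without fed replicate 2, fed replicate 3 or fasted replicate 2 (up to 0.0944). Akr1c13 passed in each of these settings. Close relatives add uncertainty, because 59.9% of the 50-base windows of Akr1b3 occurred in other genes, mostly in Gm6644, and 28.6% of those of Akr1c13 occurred in Akr1c12. Akr1c19, 23.1 kb from Akr1c13, was below the filter at 0.31, 0.09 and 0.05 FPKM in fed and 3.27, 1.14 and 0.13 FPKM in fasted libraries. Its groups overlapped, and without the filter its log2 fold change was 0.93 (limma adjusted p = 0.0661).

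Neighbouring copies of a family were compared within each library, where library scaling cancels. All 9 pairs of next neighbours among the members of 1 family less than 1 Mb apart were used, a comparison added after the values were seen. In 4 of the 9 the ratio did not overlap between groups: Aldh1a7 to Aldh1a1, Gstm4 to Gstm2, Ces1f to Ces1d and Cyp4f13 to Cyp4f17. The share of other gene pairs whose ratios separate the groups was not computed. Single genes do so in 93.4% of those held, so the count of 4 is not a result about these pairs. The ratio of Gstm4 to Gstm2 went from 0.128 ± 0.014 to 0.0844 ± 0.0076 (SD, n = 3). That of Ces1f to Ces1d went from 0.107 ± 0.019 to 0.142 ± 0.018, so by the means the less abundant esterase rose more. Its groups were barely apart, at 0.1237 in fed replicate 3 and 0.1249 in fasted replicate 2. That of Cyp4f13 to Cyp4f17 went from 1.38 ± 0.51 to 0.793 ± 0.12, a change of order in which Cyp4f17 became the more abundant gene in all fasted libraries. The exact two-sided permutation test gave p = 0.1 for each of these 4, the smallest that 3 against 3 allows, and 0.225 after Benjamini-Hochberg adjustment over 9 pairs. Fed replicate 2 weighed on several of them: without it the log2 difference of the ratio was 0.27 instead of 0.42 for Ces1f to Ces1d, and -0.47 instead of -0.76 for Cyp4f13 to Cyp4f17. The ratios of Akr1b8 to Akr1b3 (0.158 and 0.155) and of Akr1b10 to Akr1b8 (1.25 and 1.23) had nearly equal group means and overlapped.

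**Figure D3:**
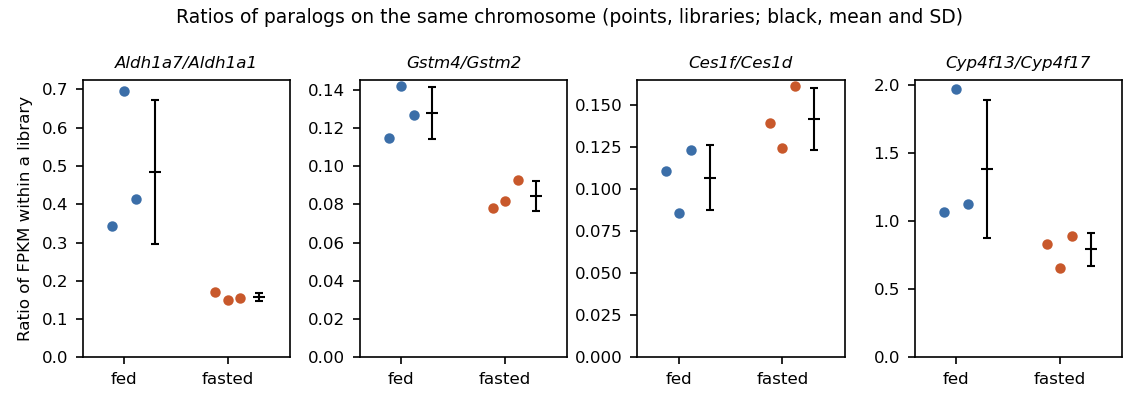
Ratio of FPKM of 2 genes of a family within each library (y axis) in fed (blue) and fasted (orange) tissue. The 4 pairs shown are next neighbours among the members, with groups that did not overlap. Black marks give the mean and SD of 3 libraries. The ratio fell for Aldh1a7 to Aldh1a1, Gstm4 to Gstm2 and Cyp4f13 to Cyp4f17 and rose for Ces1f to Ces1d in these libraries.

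Genes that work with these enzymes were counted from 7 lists. P450s draw electrons from flavoprotein and cytochrome b5 donors and need heme. Of 22 genes listed for electron donors and for heme synthesis or breakdown 8 were held. Their median log2 fold change was -0.46, with 7 called lower and 1 short of the threshold, while 49.4% of all tested genes were called lower. The falls included the outer mitochondrial membrane cytochrome Cyb5b (-1.45 ± 0.21), the cytochrome b5 reductase Cyb5r3 (-0.42 ± 0.12) and Alas1 (-0.75 ± 0.28), the entry enzyme of heme synthesis, whose groups overlapped. The number that fell was 2 with either scaling, 3 without fed replicate 1 or fasted replicate 3, and 4 without fasted replicate 1 or 2. Blvra, a gene of heme breakdown rather than supply, was also among the falls (-0.49 ± 0.20), and its groups overlapped. The P450 genes of the same libraries were mostly higher, as given above. Which of the 8 genes serve those P450s was not tested.

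Genes listed for the transport of drugs, lipids and conjugates mostly rose, with 6 rises and 2 falls among 8 held of 29 (median 0.84). Over all tested genes 41.1% were called higher and 49.4% lower. The rises counted include Abcc9 (0.86 ± 0.18), which encodes a potassium channel subunit rather than a transporter. Abcg1, a sterol exporter (1.89 ± 0.23), the P-glycoprotein genes Abcb1b (1.12 ± 0.18) and Abcb1a (0.79 ± 0.16), and the carnitine transporter gene Slc22a5 (0.93 ± 0.15) rose. Abcb1a and Abcb1b are close copies. Of the 2 falls, 0 were left with median-ratio scaling or when fed replicate 2 was dropped, and 1 was left under quantile scaling or when fed replicate 3, fasted replicate 2 or fasted replicate 3 was dropped.

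Of 51 other enzymes of oxidation, hydrolysis and conjugation 21 were held, with 10 rises and 11 falls (47.6% and 52.4%). Over all tested genes 41.1% were called higher and 49.4% lower, so these counts are not a result about the list. The soluble epoxide hydrolase Ephx2 rose from 185, 114 and 162 to 410, 559 and 447 FPKM (1.63 ± 0.21). Falls included the amine oxidase Aoc3 (-1.89 ± 0.21), the quinone reductase Nqo2 (-1.29 ± 0.17) and the nicotinamide methyltransferase Nnmt (-1.38 ± 0.19). In the supply and breakdown of cofactors, 7 rose, 10 fell and 1 did not pass among 18 held of 32. These are 38.9% higher and 55.6% lower, also near the shares over all tested genes. The rises include Chac1 (1.45 ± 0.29) and Ggt5 (0.80 ± 0.17), which break down glutathione or its conjugates. The falls include Bpnt1 (-0.60 ± 0.13), which breaks down a by-product of sulfation. Genes leading to glutathione went both ways. Cbs (2.25 ± 0.32) and Gclc (0.88 ± 0.13) rose, whereas the glutathione synthetase gene Gss fell (-0.36 ± 0.14). The NADPH-producing enzyme Pgd (-1.31 ± 0.20) and the sulfate donor synthase Papss1 (-0.66 ± 0.13) were also among the falls.

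The NRF2 programme is the oxidant-sensing pathway that controls many of these enzymes. Of 25 antioxidant genes listed, not all of them established targets of NRF2, 15 were held. Among them were 7 rises, 7 falls and 1 not past the threshold. These are 46.7% each way, beside 41.1% higher and 49.4% lower over all tested genes. Their median was -0.21, and 0.035 with quantile scaling. Catalase, Cat, rose (1.94 ± 0.22), as did Gclc and the quinone reductase Nqo1 (0.94 ± 0.17), while the peroxiredoxin gene Prdx6 fell (-1.40 ± 0.16). Of 26 regulators of the xenobiotic response 8 were held, and 4 rose and 4 fell (50% each, beside the same shares over all tested genes). Rises were Arnt (0.76 ± 0.12), the partner of the aryl hydrocarbon receptor, Ppara (0.70 ± 0.15), a fatty acid receptor, and Maff (1.34 ± 0.31), a small MAF protein. Ahr, the aryl hydrocarbon receptor gene, named after its values were seen, rose from 1.94, 1.26 and 1.97 to 6.22, 3.22 and 3.78 FPKM (0.96 ± 0.23). Tiparp, a known target gene of this receptor and also named after its values were seen, went the other way. It fell from 20.6, 15.9 and 26.7 to 13.3, 14.8 and 14.7 FPKM (-0.50 ± 0.19). Activity of the receptor was not tested. Rxrg, a retinoid X receptor gene, fell (-1.28 ± 0.23). The falls of regulators numbered 1 with either scaling and without fed or fasted replicate 1, and 2 without fed or fasted replicate 3.

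Of 21 genes of retinoid handling outside the Cyp and Aldh families, 6 were held, with 2 rises and 4 falls. Over all tested genes 41.1% were called higher and 49.4% lower. Dgat1 (0.73 ± 0.16), whose product can esterify retinol, rose, and Rxrg and the retinal reductase Dhrs3 (-0.95 ± 0.23) fell. With median-ratio scaling 2 of these falls passed, as when fed replicate 3 or fasted replicate 1 was left out. These lists share members, Rxrg, Gclc and Nqo1 among them.

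**Figure D4:**
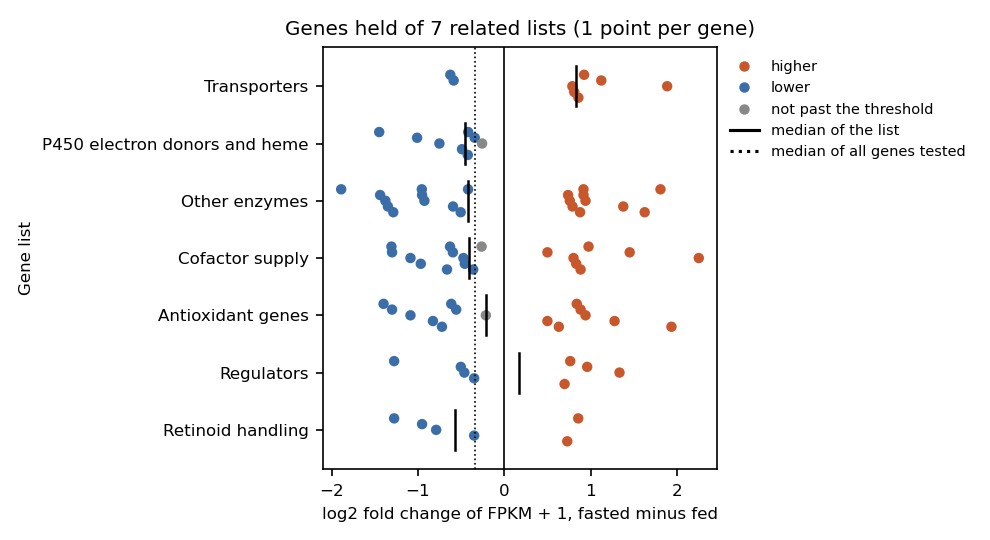
Log2 fold change of FPKM + 1, fasted minus fed (x axis, 1 point per gene), for the genes held of 7 lists related to the enzymes (y axis); solid bars are list medians and the dotted line is the median of all genes tested. The transporter list, which counts the channel subunit gene Abcc9, has a median of 0.84 with 6 rises and 2 falls. The P450 electron donors and heme genes have a median of -0.46 with 7 falls.

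Markers of several cell types moved between the groups. Their part in the changes of the enzymes was not tested, and in bulk tissue fewer cells of a type and less RNA per cell cannot be told apart. All 7 adipocyte markers held fell (6 of 7 with either scaling), and their summed FPKM was 6067 to 7241 in fed and 3344 to 3929 in fasted libraries. Retn alone gave 3761 to 4786 FPKM of that sum in fed and 2670 to 2895 FPKM in fasted libraries. Over all tested genes 41.1% were called higher and 49.4% lower. All 4 endothelial markers held of 12 rose (176 to 217 against 283 to 414). Of 6 stromal markers held of 17, 4 rose and 2 fell (1 with either scaling), and their sums were 818 to 1094 against 1284 to 1887. Dcn alone gave 391 to 627 FPKM of the stromal sum in fed and 831 to 1403 FPKM in fasted libraries. Of 20 hepatocyte markers 4 were held (12.9 to 21.4 against 49.4 to 146). Apoc3, at 1.52 to 5.58 FPKM in fed and 42.3 to 133 FPKM in fasted libraries, and Apoa1 rose. Serpina1a (log2 fold change -1.06 ± 0.25) and Alb fell. Alb was 4.47, 12.6 and 11.9 FPKM in fed and 2.28, 3.65 and 4.34 FPKM in fasted libraries. The macrophage marker Itgam, 1 of 16, fell from 4.55 to 8.38 down to 2.12 to 3.86 FPKM. Of 26 epididymal markers only Adam7 was held, at 2.05 FPKM in fed replicate 2 and at most 0.03 in every other library, and of 14 lymphocyte markers only Cd3e was, at 0.15 to 0.23 FPKM in fed and 0.89 to 0.98 FPKM in fasted libraries. None of 11 mesothelial and 12 muscle markers was held.

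Fed replicate 2 had the lowest fed value for 11 of the 16 members that rose and the highest for 8 of the 14 that fell. Among all genes called, it was lowest for 49.8% of those higher and highest for 63.0% of those lower. Fasted replicate 3 had the lowest fasted value for 8 of the 16 that rose and for 71.8% of all genes called higher. Without fed replicate 2 the members that rose numbered 16, as they did without fasted replicate 3.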

How the data were processed

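Bulk RNA-seq of epididymal fat was compared between 3 fed and 3 fasted mice. FPKM values were deposited by the authors, 1 column per library (per the file headers), rounded to 2 decimals. RSEM and the builds mm10 and GRCm38.p6 are named per the submitters' processing notes. Their versions, the aligner, the strandedness and how the 3162 genes were chosen are not given in the sources. Groups follow the treatment label. Replicates were numbered by accession and carry no pairing. Symbols and coordinates come from GENCODE M21 (GRCm38), which matched 3158 of 3162 identifiers.

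Differences were tested with limma 3.58.1 in R 4.3.3 on log2(FPKM + 1), a scale that understates changes of low genes, letting the variance depend on the mean. Genes whose mean over the libraries reached 1 FPKM were tested (2999). P-values are two-sided, Benjamini-Hochberg adjusted over these genes (threshold 0.05). As the genes held differ by choice, this is no genome-wide error rate. The test was tried on simulated data. Alternatives changed the pseudocount, filter, scaling, variance trend, adjustment, or left out each library. Both scalings used the genes held only.

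Members, lists and tests were chosen with earlier results of these data known, and the ratios of neighbours after values were seen. Every member is named, as are the 4 genes of each related list with the smallest p, apart from some that are not reported here. Shared sequence was counted as 50-base windows of the longest coding transcript found in transcripts of another gene. Protein sequences were not used here.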

Additional observations from a re-analysis of the deposited data

How the results depend on the processing

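Over the 14 alternatives none of the 31 members tested changed sign (0). All kept their side of the threshold with a pseudocount of 0.1, without a filter and without the variance trend, and 28 did with a minimum mean of 5 FPKM, which left the other 3 untested. With median-ratio scaling 7 members fell and 787 of all genes held did, and with quantile scaling 8 members fell. Adjusted over all annotated genes, 2 members rose and 1 fell (172 and 192 of all genes), and over all protein-coding genes 11 members rose and 3 fell (557 rises and 495 falls of all genes). Leaving out single libraries gave 15 to 16 rises and 9 to 13 falls of members, and 1128 to 1230 rises and 1036 to 1302 falls of all genes. On the forward strand alone GCGTG was in 4, TGTTTAC in 2 and AGGTCA in 3 of the 24 windows. No paired analysis was possible because the labels carry no shared replicate numbers. The comparison of protein sequences was not run. Depth is unknown, so counting error could not be set beside low values such as those of Fmo4, Gstp3, Akr1c19 and Ugt3a2.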
